A study of Homo sapiens with 18 samples.

Results

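The ATP-binding cassette (ABC) family is described here by CAGE-seq in 3 established bladder cancer cell lines. Members were the protein-coding genes whose symbol has the form ABCA to ABCG followed by a number, after the Ensembl identifiers of the deposited table had been joined to symbols, with TAP1 and TAP2 left out. This gave 28 members among 16575 genes. The rule used no measured values, although the members were chosen with earlier results of these data known. The pseudogenes ABCA11P, ABCA15P and ABCA17P were not counted, nor was the readthrough gene ABCF2-H2BK1, whose values equalled those of ABCF2 in every library, so that reads of ABCF2 cannot be told from it. A further 17 genes of the family, among them ABCB1, were not analysed here. Levels are given in CPM, read counts scaled to the size of the library. Of the 28 members, 25 reached 5 CPM in some library and were tested, and the other three, ABCA4, ABCA10 and ABCA13, reached 0.84, 0.67 and 2.04 CPM at most.

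CAGE-seq reads the capped 5′ ends of RNA, so a value counts starts of transcription and not read coverage, and levels of different genes can be set side by side without a correction for length. The 18 libraries came from the lines CAL-29, HT-1376 and RT-112, with 6 stably transduced variants of each and 1 library per variant. RT-112 was grown in RPMI medium, and HT-1376 and CAL-29 were grown in DMEM. A difference between RT-112 and the other lines therefore cannot be told apart from a difference of medium. All variants, controls included, went through lentiviral transduction with either a WWOX or a blank vector followed by puromycin, and then a further transduction with an AP-2α, AP-2γ or blank vector followed by G418. KK received blank vectors in both rounds, KA and KC a blank followed by AP-2α or AP-2γ, WK the WWOX vector followed by a blank, and WA and WC the WWOX vector followed by AP-2α or AP-2γ. KK, KA and KC are called K libraries below, and WK, WA and WC are called W libraries. The study used the cell lines as replicates of a variant, and no variant had more than 1 library in a line, so that p-values rest on the spread between lines or between variants of a line.

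ABC proteins bind and hydrolyse ATP, and most of them move substrates across membranes. Several pump drugs and organic anions out of the cell, others export sterols and phospholipids, and further members serve mitochondria, lysosomes or peroxisomes. ABCE1 and the ABCF proteins carry the ATP-binding domains without a membrane part and act in ribosome recycling and translation. The liver X receptors (LXR), which are sterol-sensing nuclear receptors, are well-known activators of ABCA1 and ABCG1.

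The libraries held 13357102 to 17958572 reads on genes, recovered from the steps of the CPM values, and 3 reads, the limit that a gene without reads allows, were worth 0.158 to 0.213 CPM, which covers counting error only. The library labelled CAL-29 KC had a median correlation of 0.9398 with HT-1376 libraries against 0.7413 with the other CAL-29 libraries, and it is shown apart and left out of the fits below unless stated otherwise. At the native WWOX gene, K and W libraries spanned 23.5 to 26.0 and 18.5 to 22.3 CPM in RT-112, 16.95 to 24.7 and 18.6 to 23.1 CPM in HT-1376, and 51.3 to 63.7 and 62.4 to 154.9 CPM in CAL-29. WWOX 5′ ends were therefore not raised in the libraries labelled W of RT-112 and HT-1376, and reads from a vector need not have been assigned to the native gene, so W and K are used below as labels. All 5 epithelial markers (EPCAM, CDH1, KRT8, KRT18 and KRT19) had a median of at least 5 CPM in each line, as did 6 of 8 urothelial markers in RT-112, 5 in CAL-29 and 4 in HT-1376.

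The promoters of 4 members that carry the differences below are given as RefSeq holds them on GRCh38.p14, from 250 bases before to 50 bases after an annotated start. Capitals mark the AP-2 palindrome GCCNNNGGC, searched on both strands, since AP-2 factors were among the transduced genes. ABCA1 lies at chr9:104928106-104928405 on the minus strand and ABCC5 at chr3:184017835-184018134 on the minus strand. ABCB6 lies at chr2:219218909-219219208 on the minus strand, and ABCG2 is shown for 1 of its 5 annotated starts, at chr4:88158810-88159109 on the minus strand.
ABCA1: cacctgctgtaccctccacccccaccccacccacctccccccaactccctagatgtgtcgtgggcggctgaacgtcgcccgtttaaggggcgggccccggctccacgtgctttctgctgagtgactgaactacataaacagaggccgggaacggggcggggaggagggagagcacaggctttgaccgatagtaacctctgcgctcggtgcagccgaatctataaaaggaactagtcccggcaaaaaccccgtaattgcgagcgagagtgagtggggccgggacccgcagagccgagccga
ABCG2: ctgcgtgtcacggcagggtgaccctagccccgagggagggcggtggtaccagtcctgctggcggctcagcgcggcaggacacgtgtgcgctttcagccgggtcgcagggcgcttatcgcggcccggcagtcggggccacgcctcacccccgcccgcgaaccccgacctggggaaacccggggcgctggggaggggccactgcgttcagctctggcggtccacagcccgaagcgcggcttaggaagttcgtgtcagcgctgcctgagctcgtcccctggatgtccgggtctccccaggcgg
ABCC5: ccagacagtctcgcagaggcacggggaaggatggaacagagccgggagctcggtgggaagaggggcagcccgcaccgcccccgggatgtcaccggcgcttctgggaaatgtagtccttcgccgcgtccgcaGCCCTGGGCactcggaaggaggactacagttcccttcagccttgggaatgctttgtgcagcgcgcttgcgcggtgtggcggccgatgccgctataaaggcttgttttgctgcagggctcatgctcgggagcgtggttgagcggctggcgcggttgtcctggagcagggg
ABCB6: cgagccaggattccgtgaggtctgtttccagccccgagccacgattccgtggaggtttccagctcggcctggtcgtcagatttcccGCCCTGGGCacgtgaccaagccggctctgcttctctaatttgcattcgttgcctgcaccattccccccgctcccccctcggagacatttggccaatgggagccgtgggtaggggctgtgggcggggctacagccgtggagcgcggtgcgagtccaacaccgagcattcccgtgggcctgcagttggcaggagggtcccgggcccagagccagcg
The palindrome was present in ABCC5, beginning 119 bases before the start, and in ABCB6, beginning 164 bases before it, and these letters were not in the windows shown for ABCA1 and ABCG2. An entry was held for 22 of the 28 members (32 starts), and none for 6, among them ABCA4, ABCC1, ABCC3 and ABCG1. Over the 32 starts the palindrome occurred in 6, those of ABCA5, ABCB6, ABCB8, ABCC4, ABCC5 and ABCE1, against 23.2% of all 35116 promoters of the table. The GC box GGGCGG occurred in 20 of the 32 starts against 45.0% of all promoters, TATAAA in 5 against 11.5% and CCAAT in 7 against 34.6%. The median GC content was 65.5% at member starts and 58.7% over all promoters. These are matches of letters, and binding was not measured.

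The members together held 412.6 ± 45.2 CPM (SD, n = 6) in RT-112, 573.96 ± 55.1 CPM (n = 6) over HT-1376 and 613.6 ± 177.0 CPM (n = 5) over CAL-29. The order rested on the scaling, since sums divided by TMM factors (trimmed mean of M values, a scaling chosen for the sums after seeing the data) were 527.3 ± 60.8, 564.5 ± 27.5 and 453.0 ± 67.4 CPM. Between 35.8% and 62.0% of the sum lay in the top 3 members of a library. The highest member was ABCG1 or ABCC3 in every RT-112 library, ABCF1 in 5 of 6 HT-1376 libraries, and ABCC3, ABCF1 or ABCA1 in CAL-29. The leading genes differed between lines, and ABCA3, ABCA5, ABCA12 and ABCC4 stayed under 11 CPM throughout.

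**Figure D1:**
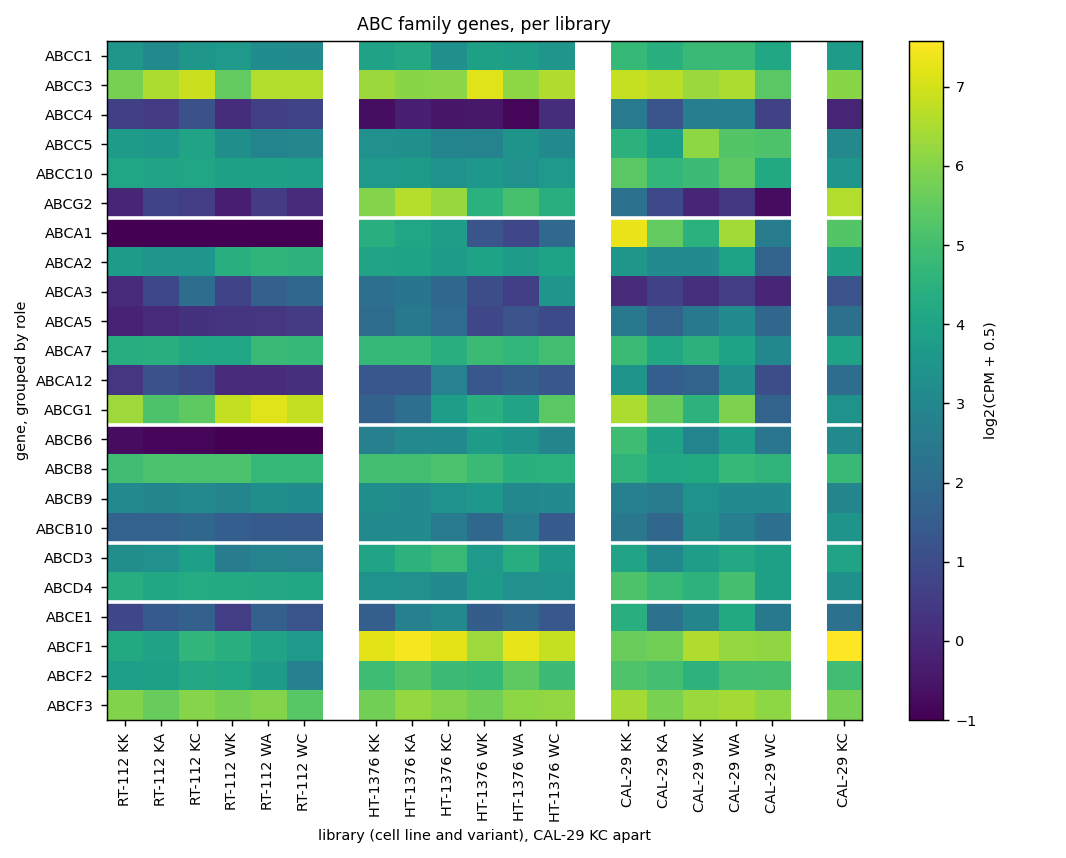
Level of 23 members in each of the 18 libraries as log2(CPM + 0.5), with rows grouped by role (from the top: multidrug and organic anion efflux, sterol and phospholipid transport, mitochondrial and lysosomal, peroxisomal and cobalamin, translation) and the library labelled CAL-29 KC apart at the right. ABCA1 and ABCB6 are at the bottom of the scale in RT-112 and ABCG2 is high in HT-1376 and in CAL-29 KC.

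The efflux pumps of drugs and organic anions were compared between the lines in 17 libraries with limma, with the variant as a covariate, and a difference was called at an adjusted p under 0.05 and a log2 difference over 1. ABCG2, the breast cancer resistance protein and a broad exporter of drugs and urate, separated HT-1376 from both other lines. ABCG2 lay between 0.33 and 1.16 CPM in RT-112 (median 0.745) and between 20.9 and 99.1 CPM in HT-1376 (median 48.5). In CAL-29 it was 4.15 CPM in KK, 1.38 in KA, 0.44 in WK, 0.82 in WA and 0.11 in WC. No HT-1376 value overlapped a value of the other lines. The log2 difference was 5.23 (SE 0.33, adjusted p = 1.5e-08) for HT-1376 minus RT-112 and -4.83 (SE 0.36, adjusted p = 9.32e-08) for CAL-29 minus HT-1376.

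ABCC4, an exporter of cyclic nucleotides and organic anions, was lowest where ABCG2 was highest. Its levels were 0.60 to 1.71 CPM in RT-112 (median 1.06), 0.06 to 0.60 CPM in HT-1376 (median 0.22), and 5.33, 1.88, 5.8, 5.95 and 1.12 CPM in KK, KA, WK, WA and WC of CAL-29. All 3 differences were called, at log2 -1.05 for HT-1376 minus RT-112, 1.39 for CAL-29 minus RT-112 and 2.44 for CAL-29 minus HT-1376 (SE 0.36, 0.39 and 0.39). The call between HT-1376 and RT-112 was lost in 7 of 26 alternatives, among them a pseudocount of 2 CPM, and HT-1376 libraries were near the worth of 3 reads. The call between CAL-29 and RT-112 was lost in 5 of 26, TMM scaling (0.80), voom and edgeR among them.

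ABCC5, another exporter of cyclic nucleotides, and ABCC1, the first multidrug resistance protein to be named in its subfamily, had their highest means in CAL-29. ABCC5 lay between 6.76 and 15.5 CPM in RT-112 (median 10.3) and between 6.59 and 10.4 CPM in HT-1376 (median 8.69). In CAL-29 it was 22.5 CPM in KK, 14.2 in KA, 69.9 in WK, 38.5 in WA and 35.9 in WC. CAL-29 exceeded RT-112 by 1.64 (SE 0.35) and HT-1376 by 1.89 (SE 0.35) on the log2 scale, with adjusted p = 0.000896 and 0.000475, and the call against RT-112 was lost with TMM scaling, voom and edgeR.

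ABCC1 was 7.89 to 11.6 CPM in RT-112 (median 9.92), 9.50 to 17.8 CPM in HT-1376 (median 14.0), and 26.4, 21.3, 26.9, 28.0 and 17.3 CPM in KK, KA, WK, WA and WC of CAL-29. CAL-29 minus RT-112 was called at a log2 difference of 1.22 (SE 0.19, adjusted p = 7.25e-05), and this fell to 0.48 under TMM scaling, where it was not called. ABCC10, a further multidrug exporter, was higher in CAL-29 than in HT-1376 (log2 1.37, SE 0.20), at 18.2 to 41.8 against 9.59 to 12.1 CPM, and it was not called with TMM scaling (0.99). ABCC3, which exports conjugated bile acids and glucuronides, had line means that differed least among the 25 members without TMM scaling. They were 86.2 ± 29.5 CPM in HT-1376 (n = 6), 85.2 ± 28.2 CPM in CAL-29 (n = 5) and 84.0 ± 27.7 CPM in RT-112 (n = 6). With TMM scaling ABCC3 was -0.31 in HT-1376 and -0.71 in CAL-29 against RT-112, neither called. ABCF3 then differed less, at -0.14 and -0.30. A range of line means over 1 on the log2 scale was present in 5 of the 6 efflux members.

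In sterol and phospholipid transport, ABCA1, which exports cholesterol and phospholipid to apolipoprotein A-I, had the widest range of the family. RT-112 held 0 reads of ABCA1 in all 6 libraries, where 3 reads are worth at most 0.181 CPM. HT-1376 lay between 1.28 and 20.7 CPM (median 8.21), and CAL-29 held 161.4 CPM in KK, 45.8 in KA, 21.7 in WK, 83.3 in WA and 5.51 in WC. Against the worth of 3 reads, the mean was at least 51.8-fold higher in HT-1376 and at least 351-fold higher in CAL-29. The fitted log2 differences from RT-112, 3.70 (SE 0.59, adjusted p = 0.000107) in HT-1376 and 6.37 (SE 0.63, adjusted p = 1.44e-06) in CAL-29, depended on the pseudocount, and CAL-29 exceeded HT-1376 by 2.67 (SE 0.63, adjusted p = 0.00268).

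ABCG1, which passes cholesterol to high-density lipoprotein, was ordered otherwise. RT-112 held 36.2 to 143.3 CPM (median 94.6) and HT-1376 2.70 to 41.8 CPM (median 14.7). CAL-29 held 92.0, 47.8, 22.9, 58.5 and 2.81 CPM in KK, KA, WK, WA and WC. HT-1376 was lower than RT-112 by a log2 difference of -2.70 (SE 0.77, adjusted p = 0.00758). CAL-29 minus RT-112 was -1.49 (SE 0.82, adjusted p = 0.118) and was called with TMM scaling (-2.24), with voom and without CAL-29 KK.

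ABCA5, a lysosomal and endosomal member of the A subfamily, and ABCA12, the lipid transporter of keratinocytes, were low in all lines and lowest in RT-112. ABCA5 was 0.39 to 0.90 CPM in RT-112 (median 0.70), 1.26 to 5.05 CPM in HT-1376 (median 2.63), and 5.05, 2.82, 5.08, 8.29 and 3.09 CPM in KK, KA, WK, WA and WC of CAL-29. RT-112 overlapped neither other line, and ABCA5 exceeded it by 1.36 (SE 0.33) in HT-1376 and 2.17 (SE 0.35) in CAL-29. ABCA12 was 0.54 to 1.74 CPM in RT-112 (median 0.72), 1.99 to 6.45 CPM in HT-1376 (median 2.04), and 10.4, 2.43, 2.87, 9.49 and 1.52 CPM in KK, KA, WK, WA and WC of CAL-29. It exceeded RT-112 by 1.16 (SE 0.37) in HT-1376 and 1.91 (SE 0.39) in CAL-29, and the former was not called with TMM scaling (0.93), with a pseudocount of 2 CPM or without RT-112 WA.

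ABCA3, the phospholipid transporter of lamellar bodies, was 0.55 to 3.79 CPM in RT-112 (median 1.98), 1.02 to 10.6 CPM in HT-1376 (median 3.5), and 0.56, 1.11, 0.61, 0.98 and 0.45 CPM in KK, KA, WK, WA and WC of CAL-29. CAL-29 was lower than HT-1376 by a log2 difference of -1.54 (SE 0.44, adjusted p = 0.00835). ABCA2, a lysosomal sterol transporter, was lower in CAL-29 than in RT-112 (log2 -1.02, SE 0.33), a call lost in 7 of 26 alternatives. ABCA7, a phospholipid transporter, showed no called difference at 7.53 to 30.8 CPM.

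The mitochondrial and lysosomal members act as dimers of single-cassette subunits. ABCB6, a porphyrin transporter, was close to absent in RT-112, with 0 to 2 reads and 0 to 0.11 CPM per library. HT-1376 held 6.12 to 12.8 CPM (median 7.82), and CAL-29 29.5, 15.0, 6.80, 13.4 and 4.61 CPM in KK, KA, WK, WA and WC. RT-112 overlapped neither line, and the log2 differences of 4.06 (SE 0.33, adjusted p = 1.89e-07) in HT-1376 and 4.48 (SE 0.36, adjusted p = 1.91e-07) in CAL-29 were called in all 26 alternatives, at sizes that depended on the pseudocount.

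ABCB8 and ABCB10, mitochondrial inner membrane members, and ABCB9, a lysosomal peptide transporter, had no called difference, at 17.1 to 35.5, 2.11 to 8.95 and 5.70 to 11.5 CPM over the 17 libraries.

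Among the peroxisomal and cobalamin members, ABCD3, a carrier of branched and long-chain acyl-CoA, was higher in HT-1376 than in RT-112 (log2 1.03, SE 0.23), a call lost in 8 of 26 alternatives. ABCD4, which acts in lysosomal cobalamin export, was higher in CAL-29 than in HT-1376 (log2 1.29, SE 0.20), at 14.3 to 36.1 against 8.30 to 12.6 CPM, and its call was lost with TMM scaling, voom and edgeR.

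Of the soluble members, ABCF1, which acts in translation initiation, separated RT-112 from the other lines. ABCF1 was 11.9 to 24.3 CPM in RT-112 (median 16.995), 78.9 to 175.8 CPM in HT-1376 (median 148.5), and 48.8, 53.9, 93.7, 74.3 and 70.2 CPM in KK, KA, WK, WA and WC of CAL-29. No RT-112 value reached the other lines, and the log2 differences from RT-112 were 2.91 (SE 0.22, adjusted p = 1.09e-07) in HT-1376 and 1.99 (SE 0.24, adjusted p = 7.99e-06) in CAL-29.

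ABCE1, which splits ribosomes after termination, was 0.98 to 2.62 CPM in RT-112 (median 2.04), 2.03 to 7.73 CPM in HT-1376 (median 2.85), and 20.2, 4.20, 6.91, 18.2 and 5.06 CPM in KK, KA, WK, WA and WC of CAL-29. CAL-29 exceeded RT-112 by 2.16 (SE 0.39) and HT-1376 by 1.35 (SE 0.39) on the log2 scale, the latter not called with TMM scaling. ABCF2 exceeded RT-112 by 1.28 (SE 0.21) in HT-1376 and 1.25 (SE 0.23) in CAL-29, and both calls were lost with TMM scaling, voom and edgeR. ABCF3, a further ABCF protein, had no called difference and lay between 39.9 and 85.4 CPM.

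**Figure D2:**
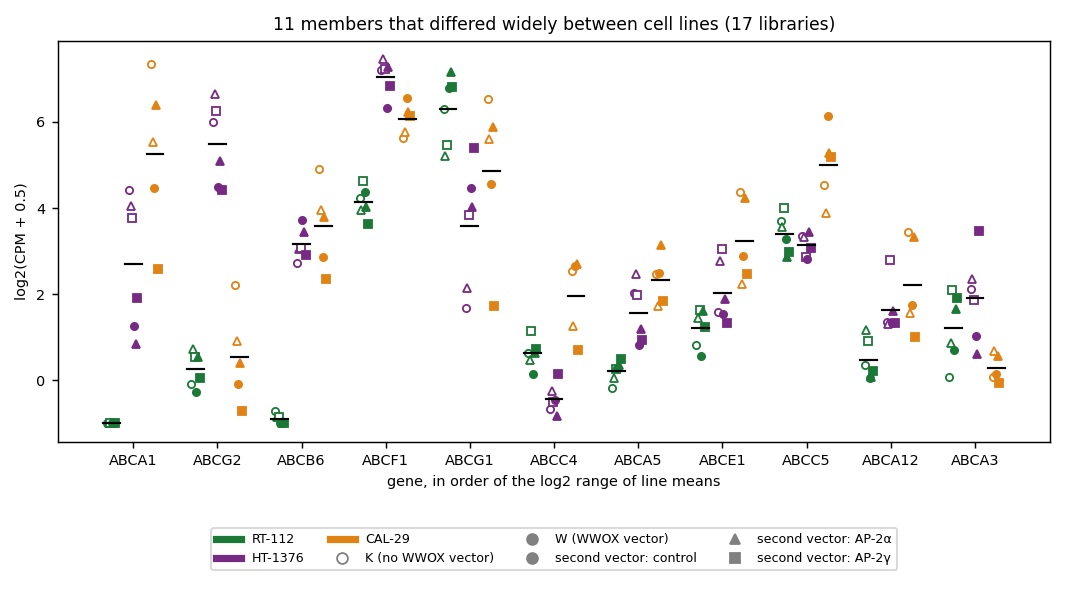
Level per library, as log2(CPM + 0.5), of 11 of the members with the widest range of line means, for RT-112 (green), HT-1376 (purple) and CAL-29 (orange), with open symbols for K and filled symbols for W libraries and a black bar for the mean of the 5 or 6 libraries of a line. ABCA1 and ABCB6 lie at the floor in RT-112, ABCG2 is separate in HT-1376, and ABCG1 is the one member of the 11 with its highest mean in RT-112.

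Over the family, 10 of the 25 members were called for HT-1376 minus RT-112 (8 higher and 2 lower) against 38.8% of the 13022 genes past the filter, of which 27.9% were higher and 10.9% lower. For CAL-29 minus RT-112, 12 members were called (11 higher and 1 lower) against 53.5% of genes, 45.6% higher and 7.86% lower. For CAL-29 minus HT-1376, 9 members were called (7 higher and 2 lower) against 39.7% of genes, 29.5% higher and 10.1% lower. The members' shares were near those of all genes in these comparisons. A median of 59.9% of a member's sum of squares lay between the lines, against 70.4% over all genes, and the range of line means was over 1 on the log2 scale in 17 of 25 members (68%) against 70.0% of genes.

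The split into higher and lower depended on the scaling. The median log2 difference of all genes was 0.43, 0.84 and 0.47 in HT-1376 minus RT-112, CAL-29 minus RT-112 and CAL-29 minus HT-1376, and TMM scaling, whose factors went from 0.742 to 0.854 over RT-112 libraries to 0.926 to 1.14 for HT-1376 and 1.05 to 1.57 for CAL-29, moved these to 0.09, 0.15 and 0.10. With TMM the members called were 8 (5 higher), 13 (7 higher) and 9 (3 higher). The shares of all genes called with TMM are not given here, so these counts cannot be read as particular to the members. The calls of ABCA1, ABCA5, ABCB6, ABCF1 and ABCG2 against RT-112 kept their direction and stayed called under TMM wherever they had been called, and ABCA7 and ABCB8 were called lower in CAL-29 than in RT-112 under TMM, at log2 differences of -1.11 and -1.21.

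Within CAL-29 the libraries were uneven. KK and WA were the highest 2 of the 5 libraries for 11 of 25 members, among them ABCA1, ABCG1, ABCA12, ABCC10, ABCD4 and ABCE1, against 34.8% of genes. WC was the lowest for 15 of 25, against 43.4% of genes. The TMM factors of CAL-29 were 1.52 in KK and 1.57 in WA and 1.05 in WC, and the part of this in the members' values was not tested.

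The library labelled CAL-29 KC was nearer the HT-1376 median than the median of the other CAL-29 libraries for 18 of 25 members (72%), against 63.9% of all genes. Among the 12 members whose medians in these lines lay over 1 apart on the log2 scale, 10 were nearer HT-1376, against 77.1% of genes. It held 96.3 CPM of ABCG2, against medians of 48.5 CPM in HT-1376 and 0.82 CPM in CAL-29. ABCF1 was 191.1 CPM against 148.5 and 70.2 CPM, ABCC5 7.69 CPM against 8.69 and 35.9 CPM, and ABCG1 9.78 CPM against 14.7 and 47.8 CPM. ABCA1, at 38.2 CPM, was among the members of these 12 that lay nearer CAL-29.

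Each variant was then compared with KK, with the cell lines as replicates and no term for the line. No member and no gene was called by limma in these 5 comparisons, at a threshold of 0.05 for the adjusted p (0% of 13022 genes in each). At an unadjusted p under 0.05 there were 0 members in each, and 37 genes for WK, 8 for KA, 14 for KC, 27 for WA and 78 for WC. Calls were also 0 for members and genes with voom and edgeR on recovered reads and with the cell line as a replicate block, where 2 members had an unadjusted p under 0.05 in WK/KK, 2 in WC/KK and 0 in the others. These comparisons share the KK libraries, and the median of all genes was -0.20 in KC/KK and -0.25 in WC/KK, which became -0.02 in both with TMM scaling. KC held 2 lines and KK 3 in this fit, so that KC/KK also holds the difference between the lines, and over the 2 shared lines the medians of KC/KK were 0.05 for all genes and 0.15 for members, against -0.20 and -0.15 in the fit. The SE of ABCA1 in WK/KK without the block was 2.44 on the log2 scale, beside a difference of -2.01.

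In the comparisons with 3 lines, changes against KK differed in direction between lines for most members. ABCA1, without reads in RT-112, had a change of 0 there and could not count as lower in all lines. It was below KK in HT-1376 and CAL-29 in each of these comparisons, at log2 changes of -3.15 and -2.87 in WK/KK. In WK/KK, 7 members were lower in all 3 lines and 0 higher, against 15.6% and 9.99% of genes. ABCG2 was among the 7, at log2 changes of -0.18, -1.51 and -2.31 in RT-112, HT-1376 and CAL-29, as were ABCA12, ABCC10, ABCD3, ABCE1 and ABCF3. In KA/KK, 1 member (ABCA3) was higher in all lines and 4 (ABCA2, ABCB9, ABCC5 and ABCD4) were lower, against 11.5% and 9.48% of genes.

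KC/KK could be read in RT-112 and HT-1376 alone, where 10 members were higher in both and 4 lower, against 31.5% and 16.2% of genes, with the largest mean difference, 1.14, in ABCE1. In WA/KK, 1 member (ABCF3) was higher and 1 (ABCD4) lower in all lines, against 12.9% and 9.82% of genes. In WC/KK, 0 members were higher and 6 (ABCA12, ABCB10, ABCC1, ABCD3, ABCD4 and ABCF2) lower, against 6.9% and 23% of genes. ABCG1 had the widest spread, with WC/KK log2 changes of 3.72 in HT-1376 and 0.50 in RT-112 beside -4.80 in CAL-29.

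**Figure D3:**
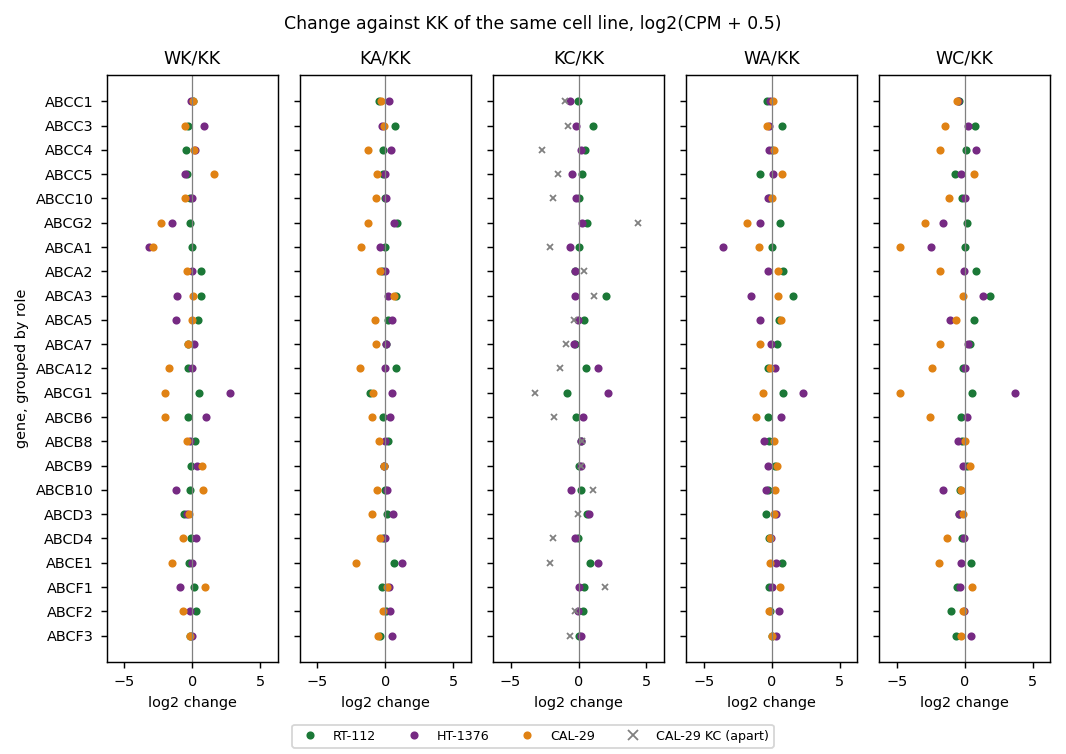
Change of each of 23 members against KK of the same cell line on the log2(CPM + 0.5) scale in WK, KA, KC, WA and WC, with 1 point per line (RT-112 green, HT-1376 purple, CAL-29 orange) and grey crosses for the library labelled CAL-29 KC. Points of most members lie on both sides of 0 in most comparisons, and ABCG1 and ABCA1 spread the widest. ABCA1 lies at 0 in RT-112, where it had no reads, and below 0 in the other lines.

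The factorial layout allowed the effect of the WWOX vector to be fitted over all lines with terms for the line and for AP-2. No member and no gene passed (0% of 13022 genes), with 2 members and 1598 genes at an unadjusted p under 0.05. The 2 were ABCG2, at a log2 difference of -1.14 (SE 0.28, adjusted p = 0.232), and ABCA1, at -1.49 (SE 0.49, adjusted p = 0.302). ABCG2 was called by voom on the recovered reads, which called 70 genes, and by neither limma with TMM scaling nor edgeR, which called 0 and 16 genes. The members' median was -0.12 beside -0.08 over all genes.

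For AP-2α over the lines, 0 members and 0 genes were called (0%), with 0 members and 199 genes at an unadjusted p under 0.05. For AP-2γ, 0 members and 0 genes were called (0%), with 2 members, ABCA3 (1.01, SE 0.41) and ABCC1 (-0.42, SE 0.18), and 343 genes at an unadjusted p under 0.05. Voom and edgeR called 0 members in both. The AP-2 libraries of RT-112 were apart for ABCC3, chosen after its values were seen. It was 56.5 and 45.2 CPM in KK and WK and 92.4, 119.0, 96.0 and 95.1 CPM in KA, KC, WA and WC. In HT-1376 and CAL-29 the corresponding groups overlapped. ABCC3 was not alone in this. In RT-112, ABCA3, ABCE1 and ABCG2, among others, were also higher in the AP-2 libraries without overlap, and ABCC1 was lower. The share of all genes with such a separation was not computed.

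The WWOX effect, meaning W against K libraries, was also fitted within each line. Whether the W libraries of a line share a WWOX transduction was not given in the sources used here. The p-values rest on the spread between variants of a line. An effect of WWOX therefore cannot be told from a difference between the transduced populations. In HT-1376, 3 of 25 members were called lower in W than in K libraries and 0 were called higher, against 8.59% of genes called, 4.38% lower and 4.21% higher. Called or not, 8 of the 25 members had a positive estimate, against 40.2% of all genes. The median estimate was -0.09 for members and -0.13 for all genes. The 3 members were ABCG2, ABCA1 and ABCA5. In RT-112, 0 members and 0 genes were called by limma (0%), with 3 members and 979 genes at an unadjusted p under 0.05 and 0 members by voom and edgeR. In CAL-29, 0 members and 77 genes (0.591%) were called by limma, with 4 members and 1598 genes at an unadjusted p under 0.05, 1 member by voom and 0 by edgeR. Without CAL-29 WA, 4 members (ABCA1, ABCB6, ABCC5 and ABCG1) were called there. The share of all genes called in that fit is not given here, so the 4 cannot be read as particular to the family.

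ABCG2 in HT-1376 was 63.1, 99.1 and 76.0 CPM in KK, KA and KC and 21.8, 33.8 and 20.9 CPM in WK, WA and WC. The groups did not overlap, and the log2 difference was -1.63 (SE 0.39, adjusted p = 0.0219). In CAL-29, KK and KA had 4.15 and 1.38 CPM and the W libraries 0.44, 0.82 and 0.11 CPM, again without overlap, at -1.62 (SE 0.44, adjusted p = 0.124). In RT-112 the groups overlapped, at 0.44 to 1.16 and 0.33 to 0.95 CPM, and the difference was -0.29 (SE 0.39).

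ABCA1 in HT-1376 was 20.7, 15.9 and 13.1 CPM in KK, KA and KC and 1.89, 1.28 and 3.29 CPM in WK, WA and WC, and the log2 difference was -2.73 (SE 0.69, adjusted p = 0.0284). The means were 16.6 ± 3.84 and 2.15 ± 1.03 CPM (SD, n = 3 each). In CAL-29 the K and W libraries overlapped, at 45.8 to 161.4 and 5.51 to 83.3 CPM (log2 -1.79, SE 0.79, adjusted p = 0.371), and RT-112 held no reads on either side. ABCA5 in HT-1376 was 3.55, 5.05 and 3.47 CPM in the K libraries and 1.26, 1.79 and 1.42 CPM in the W libraries (log2 -1.18, SE 0.33, adjusted p = 0.0431). In the other lines the estimates for ABCA5 were 0.33 (SE 0.33) in RT-112 and 0.44 (SE 0.38) in CAL-29.

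These 3 calls in HT-1376 depended on single libraries. All 3 were lost without any 1 of HT-1376 KK, KA, KC and WK, ABCA1 and ABCA5 without WA, ABCG2 and ABCA5 without WC, and all 3 when the library labelled CAL-29 KC was included. ABCA1 was not called by edgeR, and the call of ABCA5 was lost in 15 of 26 alternatives. Over all 26 the log2 difference stayed between -1.75 and -1.50 for ABCG2, between -3.30 and -2.17 for ABCA1 and between -1.40 and -0.78 for ABCA5. Genes listed as markers of other cell types moved with the same labels in HT-1376, although the samples are cultured cell lines. CD68 was 1.70 to 2.38 CPM in K and 6.07 to 14.7 CPM in W libraries (log2 2.05, adjusted p = 0.00555). COL1A1 was 1.32 to 11.1 and 13.2 to 23.3 CPM (1.77, adjusted p = 0.037), and COL1A2 1.49 to 4.37 and 18.9 to 46.1 CPM (3.14, adjusted p = 0.000141). These were the 3 of 8 markers of other cell types with a value here, and their sum spanned 5.92 to 65.4 CPM over the HT-1376 libraries. CD68 and COL1A1 also had a median of at least 5 CPM in RT-112 and in CAL-29. Of the 5 epithelial markers, KRT19 was called higher in W libraries, at 12.6 to 94.9 and 234.7 to 378.1 CPM (2.67, adjusted p = 0.00831). The other four had negative estimates that were not called, KRT18 -0.61, KRT8 -0.41, CDH1 -0.47 and EPCAM -0.47 on the log2 scale. Their part in the change of the ABC genes was not tested, and in bulk samples fewer cells of a type and less RNA per cell cannot be told apart.

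ABCC5 was the member whose WWOX effect differed between lines by the test of the interaction (F = 12.3, adjusted p = 0.0398), against 3.02% of genes. In RT-112 it was 12.6, 11.3 and 15.5 CPM in KK, KA and KC and 9.26, 6.76 and 7.35 CPM in WK, WA and WC, at a log2 difference of -0.72 (SE 0.28). In CAL-29 it was 22.5 and 14.2 CPM in KK and KA and 69.9, 38.5 and 35.9 CPM in WK, WA and WC, at 1.39 (SE 0.32). In HT-1376 the groups overlapped, at 6.74 to 9.67 and 6.59 to 10.4 CPM, at -0.06 (SE 0.28). W libraries were thus lower in RT-112 and higher in CAL-29 without overlap, and neither within-line difference passed by itself (adjusted p = 0.561 and 0.0792). The interaction was not called in 13 of 26 alternatives, among them the inclusion of the library labelled CAL-29 KC.

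**Figure D4:**
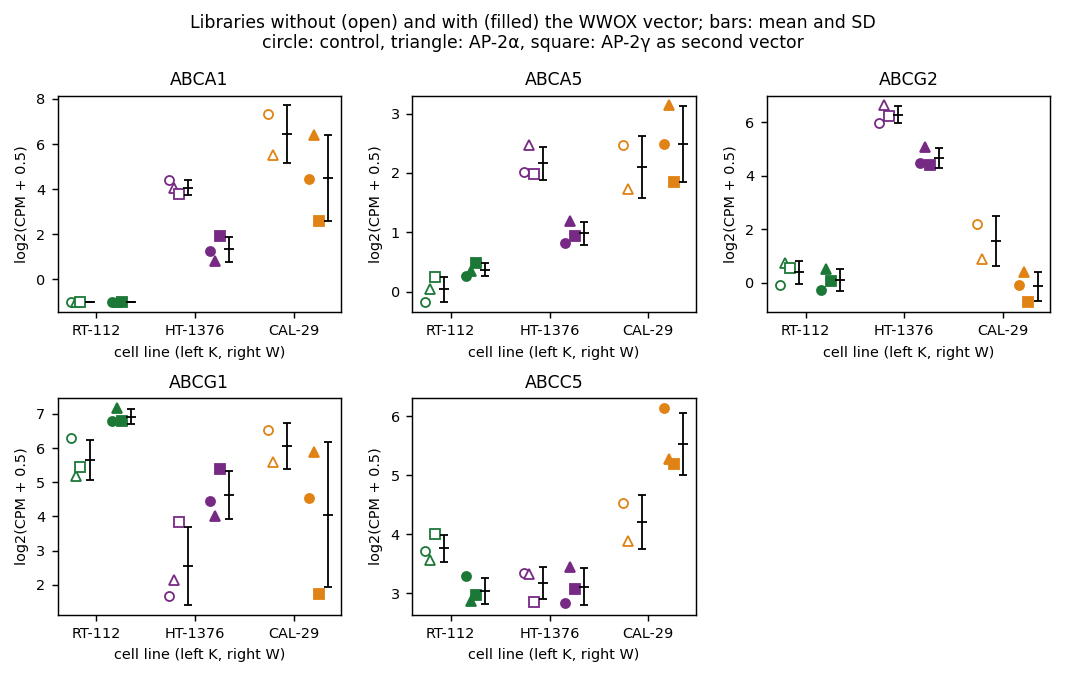
Level per library, as log2(CPM + 0.5), of ABCA1, ABCA5, ABCG2, ABCG1 and ABCC5 in K libraries (open, left) and W libraries (filled, right) of each line, with the mean and SD of 2 or 3 libraries beside the points. In HT-1376 the filled points of ABCA1, ABCA5 and ABCG2 lie below the open ones, and for ABCC5 they lie below in RT-112 and above in CAL-29.

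The K and W libraries did not overlap for 9 members in RT-112, 3 higher in W (ABCA2, ABCA5 and ABCG1) and 6 lower (ABCA12, ABCB6, ABCB10, ABCC5, ABCC10 and ABCD3), against 9.48% and 11.5% of genes. Some of these rest on few reads. ABCB6 held 0 to 2 reads in these libraries, and ABCA5 held 7 to 15, with 13 in both KC and WK. ABCA2 was 10.6 to 13.0 CPM in K and 21.0 to 23.9 CPM in W libraries (log2 0.95, SE 0.38, adjusted p = 0.561). In HT-1376, 1 member was higher (ABCG1) and 5 were lower (ABCA1, ABCA5, ABCB8 and ABCG2 among them), against 12.8% and 22.8% of genes. In CAL-29, with 2 K libraries, 3 were higher (ABCB9, ABCC5 and ABCF1) and 3 lower (ABCB6, ABCC3 and ABCG2), against 9% and 9.8% of genes.

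ABCG1 was higher in W libraries of RT-112 (78.8, 36.2 and 43.3 CPM in KK, KA and KC against 110.4, 143.3 and 111.5 CPM in WK, WA and WC) and of HT-1376 (2.70, 3.92 and 13.7 against 21.6, 15.7 and 41.8 CPM) with no overlap. In CAL-29 the groups overlapped, at 47.8 to 92.0 and 2.81 to 58.5 CPM. The log2 differences were 1.27 (SE 0.83, adjusted p = 0.83), 2.08 (SE 0.83, adjusted p = 0.132) and -1.95 (SE 0.94, adjusted p = 0.431), and the interaction gave an adjusted p of 0.148. In HT-1376, ABCA1 and ABCG1 thus went in opposite directions, with the test passed for ABCA1 and not for ABCG1.

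**Figure D5:**
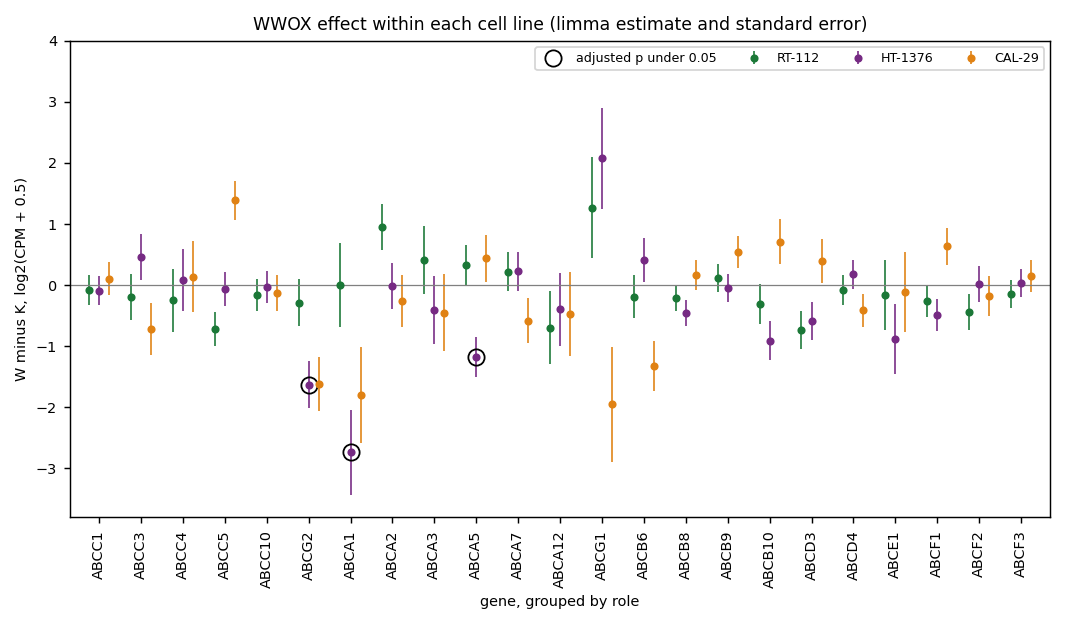
WWOX effect (W minus K, log2(CPM + 0.5), limma estimate with its standard error) for 23 members in RT-112 (green), HT-1376 (purple) and CAL-29 (orange), with black rings at an adjusted p under 0.05. The ringed points are ABCG2, ABCA1 and ABCA5 in HT-1376, and ABCC5 and ABCG1 have estimates of opposite sign in RT-112 and CAL-29.

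Genes linked with the family by function were examined as fixed lists. Of the ABC genes with other symbols, CFTR stayed at or under 2.32 CPM, and the peptide transporter subunits TAP1 and TAP2 differed between CAL-29 and HT-1376 by -1.68 and -1.001 on the log2 scale, and TAP1 was also higher in HT-1376 than in RT-112 (1.60). Of 12 regulators of ABC genes, 9 were tested, and 3, 3 and 5 were called in HT-1376 minus RT-112, CAL-29 minus RT-112 and CAL-29 minus HT-1376, where 38.8%, 53.5% and 39.7% of all genes were called. NR1H3, which encodes LXRα, averaged 28.1 ± 4.73 CPM in RT-112 (n = 6), against 14.8 ± 3.34 CPM (n = 6) for HT-1376 and 3.99 ± 1.48 CPM (n = 5) for CAL-29. NR1H2, which encodes LXRβ, was higher than NR1H3 in each line. It averaged 79.5 ± 12.6 CPM in RT-112, 50.7 ± 3.79 CPM in HT-1376 and 54.4 ± 11.0 CPM in CAL-29. Of 4 LXR targets outside the family (MYLIP, LPCAT3, SREBF1 and APOE), 1, 3 and 3 were called in the same comparisons, and APOE, the apolipoprotein of lipid transport, averaged 57.0 ± 27.2 CPM (n = 5) in CAL-29 but 1.998 ± 1.57 CPM in RT-112 and 1.75 ± 2.01 CPM in HT-1376 (n = 6 each). For the WWOX effect in HT-1376 the smallest adjusted p by limma was 0.244 among the regulators and 0.172 among the LXR targets.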

How the data were processed

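Total RNA of the 18 cell line libraries was read by CAGE-seq in reads of 75 nt. The authors aligned reads to hg38 with BWA and then HISAT2 2.0.5, clustered 5′ ends with Paraclu and RECLU, filtered the clusters by reproducibility and deposited CPM values per gene, with an Ensembl identifier for each gene. The gene annotation, the rule that joined clusters to genes and the promoter of the vectors were not given in the sources used here. Symbols and gene types came from GENCODE 44, which held 16553 of the 16575 identifiers.

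In each library 99.9% or more of the values were whole multiples of the worth of 1 read, within 0.005 CPM, and reads were recovered from them. On these reads edgeR called 1135 genes for WWOX in HT-1376, against 1118 by limma on log2 values. Levels were analysed as log2(CPM + 0.5), so that fold changes of low genes are understated. The 13022 genes that reached 5 CPM in 1 or more of the 18 libraries were fitted in 17 libraries with limma 3.58.1 (trended empirical Bayes) in R 4.3.3, with Benjamini-Hochberg adjustment over all of them, and called at an adjusted p under 0.05, between lines also at a log2 difference over 1. Line differences had the variant as covariate, variants were set against KK without a block, WWOX and AP-2 effects had the line as covariate, and WWOX effects were fitted within lines and tested for a difference between them. Alternatives were other pseudocounts and filters, all 18 libraries, TMM scaling, voom and edgeR 4.0.16 quasi-likelihood on recovered reads, the block and leaving out each library. Nothing in the labels ties libraries of a line to separate cultures, and no 2 libraries agreed within sampling noise (smallest chi-square per degree of freedom 22.0). The scripts were tested on simulated data.

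The members and lists were chosen with earlier results of these data known. Named genes were all members past the filter, except that 2 are not reported here and enter the counts alone. Values by library (lowest, median and highest for groups over 5) were given for the 12 members of the largest line range, with that exception, for those called for WWOX, and for ABCC1, ABCG2, ABCA1 and ABCG1. Cell lines served as replicate blocks because a line is shared by its libraries, whose deviations had correlations of 0.663 to 0.881 for CAL-29, 0.680 to 0.896 for HT-1376 and 0.721 to 0.915 for RT-112. Promoters are from RefSeq on GRCh38.p14. Python 3.11.15, pandas 2.3.3, NumPy 2.4.6 and matplotlib 3.10.9 were used for summaries and plots.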

Additional observations from a re-analysis of the deposited data

Results flagged for a closer look

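ABCA12 was 6.45 CPM in HT-1376 KC and 1.99 to 2.56 CPM in the other HT-1376 libraries, a gap that made this library an outlier of its line. ABCF2 was 6.39 CPM in RT-112 WC and 12.9 to 17.6 CPM in the other RT-112 libraries, again an outlier. These were 2 of 74 groups of a member in a line that were examined, and chance marks about 1 in 20 such groups. The WWOX effect on ABCC5 differed between the lines by the interaction test of limma, with an adjusted p of 0.039752.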

How the results depend on the processing

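Line calls of members for HT-1376 minus RT-112 fell to 6 with a pseudocount of 2 CPM, and for CAL-29 minus HT-1376 they rose to 14 without the fold threshold. Over the lines, WWOX called 1 member with voom. For WWOX in HT-1376, calls were 0 with all 18 libraries, 1 with a pseudocount of 0.05 CPM and 0 to 5 when each library was left out in turn. For WWOX in CAL-29, calls were 1 each with all 18 libraries, no filter, TMM scaling and voom, and 0 to 4 leaving out libraries. For WWOX by line, calls were 0 with all 18 libraries, 2 with no filter, 2 with TMM scaling, and 0 to 4 leaving out libraries. The shares of all genes called are not given beside these counts, which describe the stability of member calls alone. With the cell line as a replicate block, the 5 comparisons with KK had 0 members called, as without the pairing, and without the block the WWOX and AP-2 effects over the lines also had 0. The values of single members called in the main fits were followed through 909 alternative values. Of these, 815 kept the call and 94 lost it. None turned direction, apart from the 26 F values of the ABCC5 interaction, which have no direction. The causes were not tested. Each line and variant had a single library, and depth limits ABCC4 in HT-1376 and ABCB6 in RT-112, which lie near the worth of 3 reads.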
